A study of Mus musculus with 7 samples.

Results

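Respiratory complex I, the NADH:ubiquinone oxidoreductase of mitochondria, was followed through the genes whose symbol starts with Nduf on a mouse gene expression microarray. All probes with such a gene name were taken, apart from control spots and names ending in -ps, which mark pseudogenes. This gave 70 probes for 45 genes, of 56605 probes for 37008 gene names on the array. Of these probes, 66 were well above background in the sample channel on all arrays of at least 1 genotype, and they covered all 45 genes.

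Complex I takes electrons from NADH, passes them along a chain of iron-sulfur clusters to ubiquinone, and pumps protons across the inner mitochondrial membrane. It has a matrix arm, which oxidises NADH, and a membrane arm, which pumps, and its subunits are encoded partly in the nucleus and partly in mitochondrial DNA. A set of assembly factors builds the complex and is not part of the finished enzyme. In the mammary gland the transcripts come from epithelium, adipocytes, stroma and any adjoining muscle alike.

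Abdominal mammary glands of nulliparous adult FVB females, 20 to 25 weeks old and in diestrus, were compared between 3 wild-type mice and 4 PRA transgenic mice. The PRA transgenic animals were bigenic, carrying CMV-GAL-4, in which the murine cytomegalovirus promoter drives the GAL-4 activator, and UAS-PR-A, an additional gene for the A form of the progesterone receptor. The promoter is not specific to the mammary epithelium, and the glands of these mice were labelled preneoplastic. Total RNA of 1 gland from 1 animal, with the lymph nodes removed, was labelled with Cy5 and hybridised to each array together with Cy3-labelled Universal Mouse Reference RNA, a pool from mouse cell lines, and no dye swap was made. A level below is the log2 ratio of the gland to this reference, and a log2 fold change is the PRA transgenic mean minus the wild-type mean of these ratios, with its standard error (SE) from limma.

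The 7 arrays lay on 1 slide with the wild-type samples in row 1 and the PRA transgenic samples in row 2, so the effect of the row and that of the genotype cannot be told apart. The share of probes well above background in Cy5 was 62.65% to 66.15% in wild-type and 56.65% to 60.23% in PRA transgenic arrays. In Cy3, which carried the same reference RNA on every array, it was 53.24% to 53.98% and 47.22% to 50.6%. The lower share in row 2 was thus seen in both channels and not in the gland RNA alone. Adipocyte and luminal epithelial markers, averaged over each list, were above the reference in all 7 glands (5.40 to 6.12 and 3.91 to 4.71). Skeletal muscle markers were high in wild-type 1, wild-type 3 and PRA transgenic 4 (list means 2.08, 3.15 and 2.89) and lay between -0.24 and -0.11 in the other 4 arrays. The brightest Pgr probe, for the progesterone receptor, had a log2 fold change of -0.65 (SE 0.80) with overlapping genotypes. Its Cy3 reference signal was well above background on 0 arrays, and the log2 fold change was 0.03 in Cy5 alone and 0.69 in Cy3 alone. The ratio of this probe therefore shows no direction for Pgr in the glands. Whether the Pgr probes match the UAS-PR-A transgene was not given in the sources used here, so they check no label. In whole glands, fewer cells of a type and less RNA per cell cannot be told apart.

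Probes for 2 genes are shown because the genotype comparison of single genes below turns on them. Each is 60 bases long and is given 5′ to 3′ in lower case, with no base singled out, and its mm9 position follows. The Ndufaf3 probe spans more genomic bases than its length, so it crosses an exon junction.

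Ndufaf3 (chr9:108468692-108468899, minus strand): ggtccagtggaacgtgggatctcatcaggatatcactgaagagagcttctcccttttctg

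Ndufaf6 (chr4:10978306-10978365, minus strand): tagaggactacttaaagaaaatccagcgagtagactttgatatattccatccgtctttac

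No complex I gene passed the genotype comparison after adjustment over all 34288 probes tested. The lowest adjusted p among the 66 complex I probes was 0.498 (limma, Benjamini-Hochberg), and over the whole array 4 probes, 0.0117%, passed at 0.05. Before adjustment, 3 complex I probes had a limma P under 0.05, and all 3 were higher in PRA transgenic glands. That is 3 of 66 beside 4.54% of all probes called higher and 4.48% called lower, or 9.02% in either direction. The 3 probes belong to 2 of the 45 genes, the assembly factors Ndufaf3 and Ndufaf6, beside 7.95% of all genes called in either direction by their brightest probe.

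The genes nevertheless leaned to the PRA transgenic side. Taking the brightest probe of each gene, the log2 fold change was above 0 for 36 of 45 genes, 80.0%, beside 52.7% of all 22486 genes. Its median was 0.09 for complex I and 0.01 for all genes, and the values ran from -0.32 for Ndufa4 to 0.43 for Ndufaf4. This lean rested on single animals. Without PRA transgenic 1, 21 of 45 genes were higher and the median was -0.01, whereas without PRA transgenic 4, 43 genes were higher and the median was 0.25. The genotypes did not overlap for 1 gene, Ndufaf3, beside 4.59% of all genes lying higher and 4.5% lower without overlap. By probe it was 2 of 66, both higher, beside 5.41% of all probes higher and 4.51% lower.

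**Figure D1:**
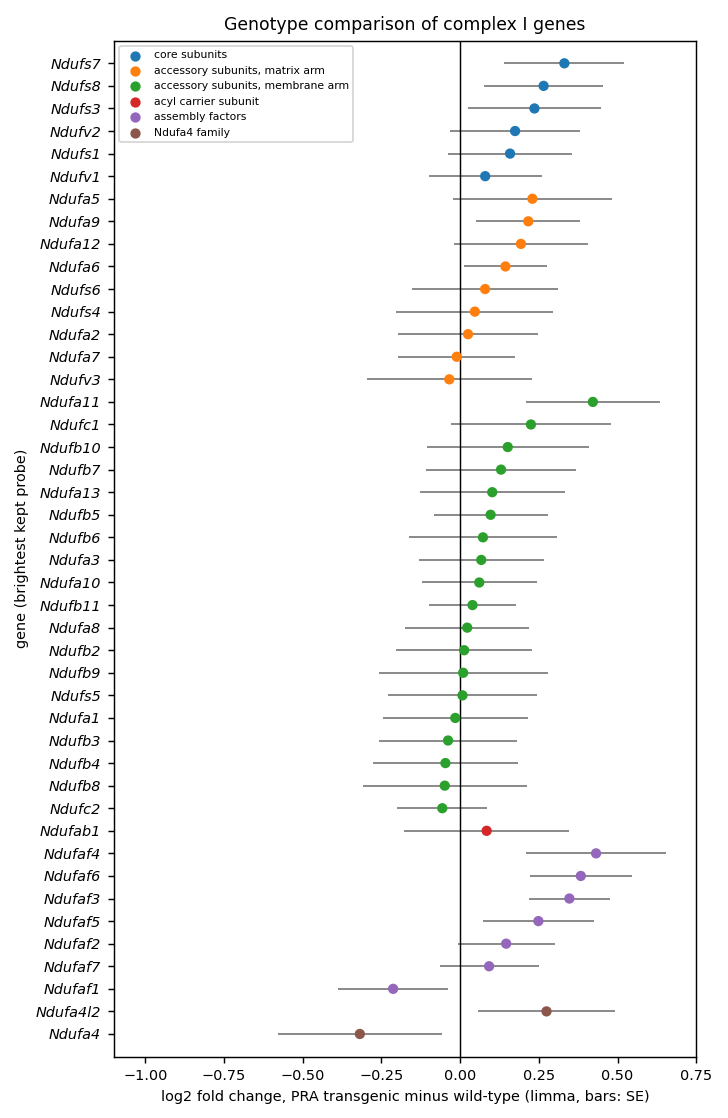
Log2 fold change of the complex I genes, 1 of the 45 not drawn, PRA transgenic minus wild-type (x axis), with genes on the y axis grouped by role and coloured by it; points are limma estimates from 3 wild-type and 4 PRA transgenic arrays and bars are 1 SE. The points lie between -0.32 and 0.43, most of them to the right of 0.

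The members moved together from animal to animal. Averaged over the 45 genes, the level was 0.77, 0.85 and 0.82 in the wild-type glands and 1.21, 0.82, 1.16 and 0.52 in PRA transgenic glands 1 to 4. The wild-type glands and PRA transgenic 2 were alike, PRA transgenic 1 and 3 were above them, and PRA transgenic 4 was below all others. The mean of all genes hardly moved over the same arrays, from 0.25 to 0.29.

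Single genes followed the same order. PRA transgenic 1 was above all 3 wild-type glands in 41 of 45 genes (91.1%, all genes 31.9%) and PRA transgenic 3 in 35 (77.8%, all genes 28.7%), and neither was below all of them in any of the 45. In PRA transgenic 4, 38 of 45 genes were below all 3 wild-type glands (84.4%, all genes 26.0%), and it was the lowest of the 7 arrays in 37. PRA transgenic 2 was above all wild-type glands in 12 genes and below them in 12, 26.7% each way, close to the shares of all genes (26.2% above and 27.6% below).

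The 4 PRA transgenic glands therefore spread more widely than the wild-type glands. The median standard deviation over the 45 genes was 0.12 among wild-type and 0.36 among PRA transgenic animals, beside 0.23 and 0.25 for all genes. This spread enters the SE, which limma pools over both genotypes and moderates over all probes. Unequal spread of the genotypes was thus not modelled. The median SE was 0.21 for complex I and 0.19 for all genes.

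**Figure D2:**
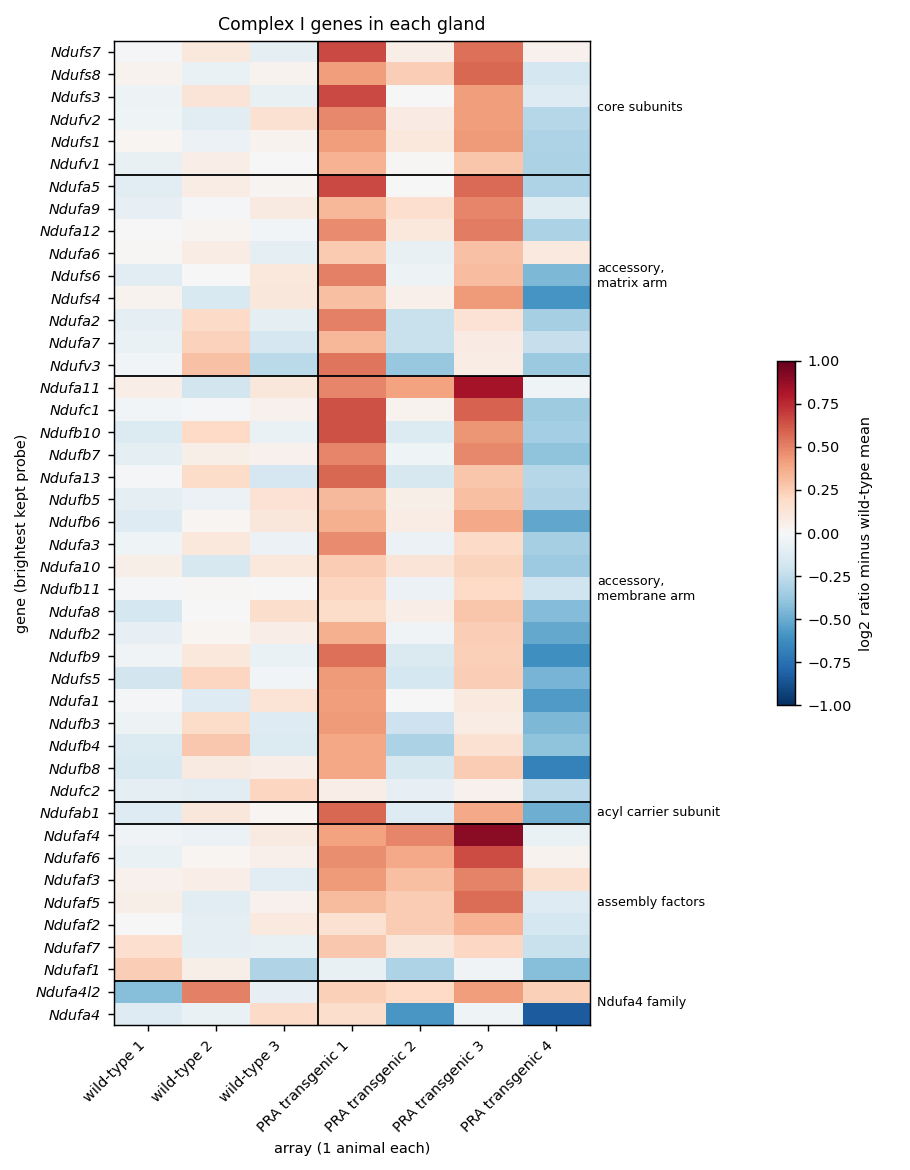
Heat map of the complex I genes (rows, by role, 1 of the 45 not drawn) in the 7 arrays (columns, 1 animal each); colour is the log2 ratio to the reference minus the wild-type mean of that gene, red above and blue below. PRA transgenic 1 and 3 are red in most rows and PRA transgenic 4 is blue in most rows, and PRA transgenic 1 lies above all 3 wild-type arrays in 41 of 45 genes.

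The pattern was seen in the sample channel alone. Cy5 signal, scaled to the 75th percentile of each array, averaged 3.25, 3.26 and 3.27 in wild-type and 3.59, 3.29, 3.58 and 3.02 in PRA transgenic glands. The Cy3 reference, scaled alike, averaged 2.46, 2.40 and 2.44 in wild-type and 2.37, 2.45, 2.41 and 2.48 in PRA transgenic arrays. It was lowest in PRA transgenic 1 and highest in PRA transgenic 4, so it moved the ratios of these arrays the same way, by less. After background correction and loess normalisation of each array, the list mean of log2 ratios was 0.82, 0.92 and 0.87 in wild-type and 1.27, 0.86, 1.19 and 0.55 in PRA transgenic arrays.

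Probe brightness moved with part of this pattern. The complex I probes were bright, with a median log2 Cy5 signal of 13.88, and 35 of the 45 genes were above 12. The 2460 other genes above 12 deviated from their own median over the 7 arrays by a median of 0.11 in PRA transgenic 1, 0.00 in PRA transgenic 3 and 0.00 in PRA transgenic 4, against 0.38, 0.28 and -0.34 for the complex I genes. Thus bright genes as a class were also higher in PRA transgenic 1, by less. This measure can stay at 0 when genes shift a little, since each gene is set against its own median. The other genes were also not matched to the complex I genes in brightness. The part of brightness in PRA transgenic 3 and 4 was therefore not tested.

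The core subunits carry the flavin and the iron-sulfur clusters. All 7 nuclear core genes had a log2 fold change above 0, with a median of 0.24, and none had a P under 0.05. Ndufs7, which carries the last iron-sulfur cluster before ubiquinone, measured 0.68, 0.80 and 0.59 in wild-type and 1.35, 0.76, 1.24 and 0.73 in PRA transgenic glands. PRA transgenic 1 and 3 stood above all wild-type animals and the other two lay among them, giving 0.33 (SE 0.19, limma adjusted p = 0.66).

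The iron-sulfur subunit Ndufs8 read 0.31, 0.20 and 0.31 in wild-type and 0.69, 0.52, 0.85 and 0.10 in PRA transgenic glands, with 3 of the 4 PRA transgenic animals above all wild-type ones and the last below them. Its log2 fold change was 0.27 (SE 0.19). For Ndufs3, a core subunit of the matrix arm without a cofactor, the value was 0.24 (SE 0.21). Ndufv2 and Ndufs1, iron-sulfur subunits of the NADH-oxidising module, were at 0.17 (SE 0.21) and 0.16 (SE 0.20). Ndufv1, which binds NADH and flavin, was at 0.08 (SE 0.18) on its brightest probe and at 0.28 (SE 0.17) on another.

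Accessory subunits surround the core. In the matrix arm 7 of 9 genes had a log2 fold change above 0 (median 0.08) and in the membrane arm 14 of 19 (median 0.04), and no gene of either group had a P under 0.05. Ndufa11, a membrane arm subunit, was at the top of the accessory range. It read 0.29, 0.05 and 0.35 in wild-type and 0.72, 0.63, 1.06 and 0.19 in PRA transgenic glands, for a difference of 0.42 (SE 0.21, limma adjusted p = 0.61). PRA transgenic 1, 2 and 3 were above every wild-type animal and PRA transgenic 4 was among them.

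After it came Ndufa5 of the matrix arm at 0.23 (SE 0.25), Ndufc1 of the membrane arm at 0.22 (SE 0.25), and the matrix arm genes Ndufa9 at 0.22 (SE 0.17) and Ndufa12 at 0.19 (SE 0.21). Ndufa5 had a pair of bright probes that share 35 bases, and both gave 0.23. At the lower end were Ndufv3 at -0.03 (SE 0.26) in the matrix arm and, in the membrane arm, Ndufb3 at -0.04 (SE 0.22), Ndufb4 at -0.05 (SE 0.23), Ndufb8 at -0.05 (SE 0.26) and Ndufc2 at -0.06 (SE 0.14). Each of these lay within its SE of 0. Ndufab1, the mitochondrial acyl carrier protein that is also a subunit, was at 0.08 (SE 0.26).

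A log2 fold change near 0 did not mean that animals were alike. Ndufb9, a membrane arm subunit, read 1.07, 1.21 and 1.03 in wild-type and 1.66, 0.96, 1.34 and 0.49 in PRA transgenic glands, so that its PRA transgenic values enclosed the wild-type ones and the difference of means was 0.01 (SE 0.27). Ndufb8 likewise read 1.21, 1.45 and 1.44 against 1.75, 1.21, 1.62 and 0.69.

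Of the 7 assembly factors, 6 had a log2 fold change above 0, and their median of 0.25 was close to that of the core subunits. Ndufaf3, which acts with Ndufaf4 early in building the ubiquinone-reducing part of the matrix arm, read 0.34, 0.36 and 0.18 in wild-type and 0.72, 0.59, 0.79 and 0.46 in PRA transgenic glands. All 4 PRA transgenic animals were above all 3 wild-type ones, with a log2 fold change of 0.35 (SE 0.13, limma adjusted p = 0.498).

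Ndufaf6, another factor of early assembly, read -0.64, -0.56 and -0.53 in wild-type and -0.12, -0.20, 0.07 and -0.55 in PRA transgenic glands on the probe printed above. Its log2 fold change was 0.38 (SE 0.16, limma adjusted p = 0.552), and a junction probe elsewhere in the gene gave 0.38 (SE 0.16, limma adjusted p = 0.536). PRA transgenic 1, 2 and 3 lay above the wild-type animals on both, and PRA transgenic 4 lay among them. A dim probe of the same gene had a log2 fold change of 0.11 (SE 0.59).

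Ndufaf4, the partner of Ndufaf3, had the highest value of all 45 genes. Its levels were -0.04, -0.07 and 0.08 in wild-type and 0.39, 0.48, 0.89 and -0.08 in PRA transgenic glands, for a difference of 0.43 (SE 0.22, limma adjusted p = 0.62). PRA transgenic 4 was below all wild-type animals and the other 3 were above them. Ndufaf5, which hydroxylates Ndufs7, was at 0.25 (SE 0.18), Ndufaf2, a factor of late assembly related to Ndufa12, at 0.15 (SE 0.16), and Ndufaf7, a methyltransferase, at 0.09 (SE 0.16).

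Ndufaf1, which works on the membrane arm, was the exception. It read 0.72, 0.53 and 0.17 in wild-type and 0.39, 0.16, 0.43 and 0.04 in PRA transgenic glands, with overlapping genotypes and a log2 fold change of -0.21 (SE 0.18). PRA transgenic 1 was not high for this gene, and the 3 wild-type animals were themselves spread out.

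Of the Ndufa4 family, Ndufa4 carries a complex I name but is now placed with complex IV. Its levels were 1.28, 1.34 and 1.60 in wild-type and 1.59, 0.82, 1.37 and 0.58 in PRA transgenic glands. PRA transgenic 2 and 4 were below every wild-type animal, and the log2 fold change of -0.32 (SE 0.26) was the lowest of the 45 genes. Ndufa4l2, a gene induced by hypoxia, read 1.66, 2.58 and 2.00 against 2.32, 2.28, 2.50 and 2.32 (0.27, SE 0.22), and it did not follow the animal pattern, the 4 PRA transgenic glands being alike and the wild-type glands apart.

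**Figure D3:**
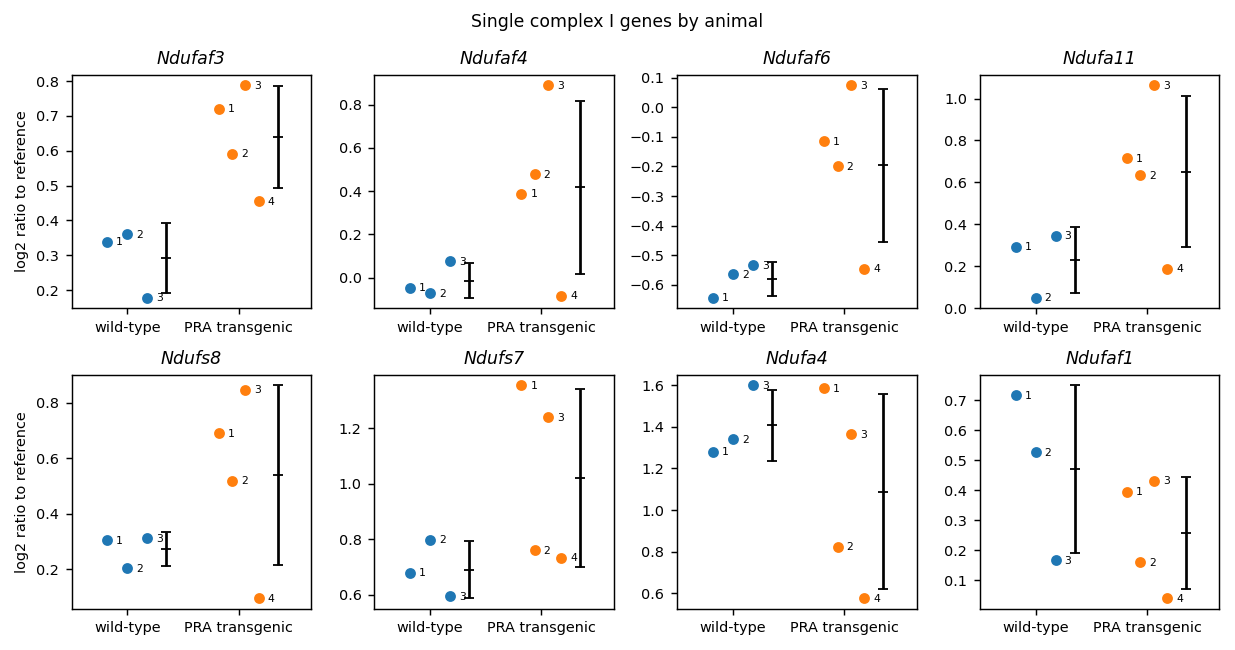
Log2 ratio to the reference (y axis, its range set for each gene) of 8 complex I genes in 3 wild-type and 4 PRA transgenic animals, numbered by replicate, with group means and SD beside them in black. All 4 PRA transgenic points lie above the wild-type points for Ndufaf3, whereas PRA transgenic 4 lies among or below them for Ndufaf4, Ndufaf6, Ndufa11 and Ndufs8.

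Leaving out PRA transgenic 4 raised the number of small P values most. Without it, 11 complex I probes had a limma P under 0.05, all higher in PRA transgenic glands, beside 6.91% of all probes called higher in the same fit, and the lowest adjusted p among complex I probes was 0.283. They included a pair for Ndufaf6 and 1 probe each for Ndufs8, Ndufv1, Ndufab1, Ndufa11, Ndufaf3, Ndufaf4 and Ndufaf5. Without wild-type 3, PRA transgenic 1 or PRA transgenic 3 the number was 0, beside 2566, 3016 and 2279 of all 34288 probes.

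Several genes were read by more than 1 kept probe, which serves as a second measurement of the same animals. In 16 of 17 such genes the log2 fold changes had the same sign on every probe, but 56 of all 66 complex I probes were above 0. Some of the further probes were dim, and those of Ndufb2, Ndufs3 and Ndufaf6 included one with Cy3 well above background on 0 arrays. Ndufb8 was the exception, with -0.05 on its bright probe and 0.29 (SE 0.13) on a dim one. For Ndufa13, a membrane arm subunit also known as GRIM-19, the probes differed widely in level and little in fold change. The bright probe read 1.13 to 1.99 over the 7 arrays and the dim one, at another position on chromosome 8, -2.19 to -1.34, yet the log2 fold changes were 0.10 and 0.19.

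Compared with the reference RNA, 41 of 45 complex I genes were higher in the glands by their mean ratio over the arrays, with a median of 0.95, beside 12087 of all 22486 genes with a median of 0.07. The genes below the reference were the assembly factors Ndufaf6, Ndufaf2, Ndufaf5 and Ndufaf7. Every gland was labelled with Cy5 and the reference with Cy3, so gland and dye cannot be told apart in these levels. The genes as a whole were also dimmer, with a median log2 Cy5 signal of 8.20 against 13.88 for complex I.

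The subunits encoded in mitochondrial DNA were measured by separate probes. By mean over 7 genes, the glands read 1.42, 1.16 and 1.40 in wild-type and 1.94, 1.47, 1.58 and 1.08 in PRA transgenic, so PRA transgenic 1 was again highest and PRA transgenic 4 lowest. ND6, the subunit encoded on the strand opposite to the others, read 0.04, -0.12 and 0.08 in wild-type and 0.86, 0.69, 0.57 and 0.52 in PRA transgenic glands. Its genotypes did not overlap, beside 4.59% of all genes lying higher without overlap. The log2 fold change of ND6 was 0.66 (SE 0.13, limma adjusted p = 0.330). The 6 others did not reach a P of 0.05 and ran from -0.29 (SE 0.24) for ND2 to 0.35 (SE 0.29) for ND3. The ND3 probe, which is counted in the mean above, is annotated to chromosome 1, and the probes of the other genes to mitochondrial DNA.

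Assembly factors without an Nduf symbol had a median log2 fold change of 0.09 over 9 genes, 6 of them above 0 and none with a P under 0.05. Foxred1, an oxidoreductase needed for assembly, was at 0.27 (SE 0.15) and Ecsit, a subunit of the membrane arm assembly complex, at 0.23 (SE 0.18). Ndufaf8, listed on the array under an older name and so outside the 45 genes, was at 0.04 (SE 0.11).

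The remaining respiratory complexes had the same order of PRA transgenic glands, whereas the order of the wild-type glands differed. Complex III averaged 0.78, 0.74 and 0.86 in wild-type and 1.23, 0.83, 1.17 and 0.45 in PRA transgenic glands over 15 genes, and ATP synthase 0.90, 0.96 and 1.01 against 1.39, 0.96, 1.28 and 0.66 over 16. Complex IV over 22 genes and complex II over 8 genes also had PRA transgenic 1 highest, PRA transgenic 3 next and PRA transgenic 4 lowest. Log2 fold changes were above 0 for 12 of 15 genes of complex III, 16 of 22 of complex IV, 15 of 16 of ATP synthase and 4 of 8 of complex II, and none of these genes had a P under 0.05. The order of the PRA transgenic glands was thus not particular to complex I.

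**Figure D4:**
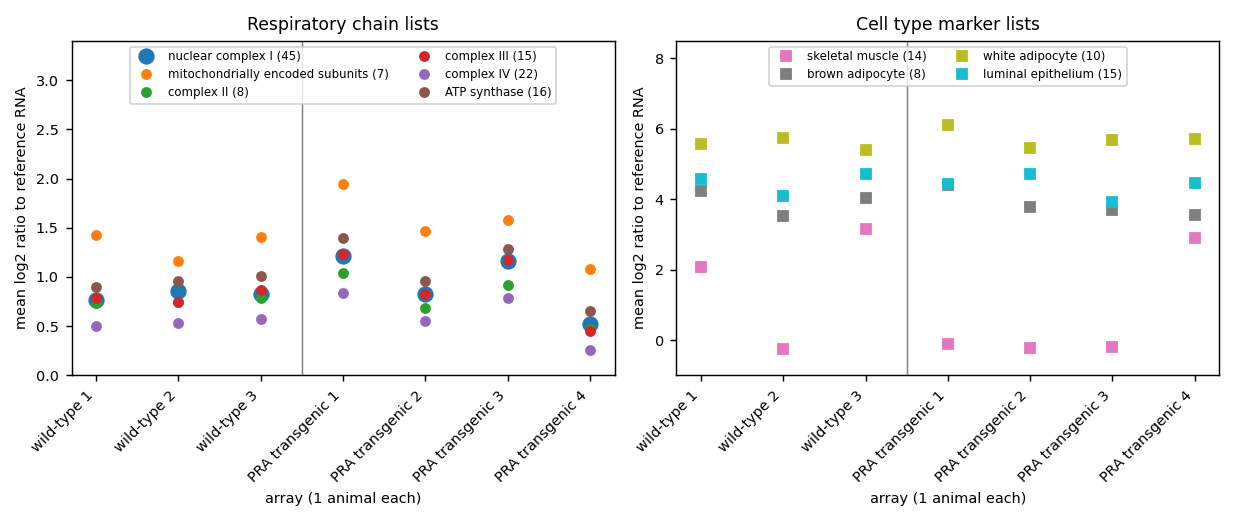
Mean log2 ratio to the reference (y axis) in each array (x axis) for respiratory chain lists (left) and cell type marker lists (right), with the number of genes in parentheses. Nuclear complex I is at 1.21 and 1.16 in PRA transgenic 1 and 3 and at 0.52 in PRA transgenic 4, and the other respiratory lists have PRA transgenic 1 highest and PRA transgenic 4 lowest, whereas the skeletal muscle list is high in wild-type 1, wild-type 3 and PRA transgenic 4.

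Cell type markers were set beside this order. Skeletal muscle markers were high in PRA transgenic 4, where complex I was lowest, but also in wild-type 1 and 3, where complex I was at 0.77 and 0.82. The 4 arrays low in muscle markers hold only 1 wild-type animal (wild-type 2) and PRA transgenic 1 to 3. Over them, 36 of 45 complex I genes were higher in PRA transgenic glands, beside 50.5% of all genes, with a median of 0.25. This split also leaves out PRA transgenic 4, where complex I was lowest, so it cannot show the part of muscle. Brown adipocyte markers averaged 4.22, 3.53 and 4.05 in wild-type and 4.42, 3.79, 3.69 and 3.54 in PRA transgenic glands over 8 genes, highest in PRA transgenic 1 and, in PRA transgenic 3, inside the wild-type range. White adipocyte markers were highest in PRA transgenic 1 (6.12) and between 5.40 and 5.75 elsewhere. Luminal markers were 4.43 in PRA transgenic 1 and 3.91, their lowest, in PRA transgenic 3. Macrophage markers ran opposite to complex I over the PRA transgenic glands. Over 7 genes they averaged 2.63, 2.65 and 2.38 in wild-type and 2.18, 2.56, 2.27 and 3.12 in PRA transgenic glands, lowest in PRA transgenic 1, next lowest in PRA transgenic 3 and highest in PRA transgenic 4. Fibroblast markers over 8 genes read 2.68, 2.33 and 2.13 against 1.97, 2.17, 2.03 and 2.58, with PRA transgenic 1 and 3 again the lowest and PRA transgenic 4 the highest of the PRA transgenic glands, and 0 of the 8 had a log2 fold change above 0. Endothelial markers were highest in PRA transgenic 1 (5.36), with PRA transgenic 4 next (5.20). Wild-type 1 stood apart in lymphoid markers. T cell markers averaged 1.72 there and -0.56 to 0.05 in the other arrays, and B cell markers 0.76 there and -1.08 to -0.43 in the others. The part of cell composition in the complex I levels was not tested further.

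Of 11 regulators of mitochondrial biogenesis, 2 had a log2 fold change above 0, with a median of -0.07. Ppargc1b, a coactivator that raises mitochondrial gene expression, read 0.34, -0.04 and 0.34 in wild-type and 0.91, 0.77, 0.91 and 0.44 in PRA transgenic glands, without overlap, with a log2 fold change of 0.54 (SE 0.17, limma adjusted p = 0.453). Its relative Ppargc1a was at -0.14 (SE 0.26). Gabpa and Yy1 did not overlap either, both lower in PRA transgenic glands. That is 1 of 11 regulators higher and 2 lower, beside 4.59% of all genes higher and 4.5% lower without overlap. The transcription factors Nrf1 and Yy1 were at -0.01 (SE 0.11) and -0.10 (SE 0.10), the ETS factor Gabpa at -0.23 (SE 0.11, limma adjusted p = 0.601), the nuclear receptor Esrra at -0.03 (SE 0.16), and Tfam, which packages and transcribes mitochondrial DNA, at -0.03 (SE 0.13).

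Promoter sequences from RefSeq (GRCm38.p6), 250 bases before to 50 after the start, were matched by symbol for 39 of the 45 genes, with 41 promoters. They were searched on both strands for the letters GCGCATGCG (NRF1), CCGGAAG (ETS factors), AAGATGGCG (YY1) and TCAAGGTCA (ESRRA), none of which contains another. The NRF1 letters were in 4 promoters (9.76%, all 32851 promoters 1.75%), the ETS letters in 5 (12.2%, all 8.86%), the YY1 letters in 5 (12.2%, all 1.4%) and the ESRRA letters in 0 (all 0.423%). At least 1 of the first 3 was in 14 (34.1%, all 11.4%), beside 48.0% of 50 promoters of complexes III and IV and ATP synthase.

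Genes with these letters had log2 fold changes from -0.21 for Ndufaf1 to 0.43 for Ndufaf4. Genes with a promoter but without the letters ran from -0.32 for Ndufa4 to 0.35 for Ndufaf3. Whether these groups differed within their ranges was not tested. The NRF1 letters were in Ndufaf4 (0.43), Ndufa11 (0.42), Ndufaf5 (0.25) and Ndufa8 (0.02). Those of YY1 were in Ndufs7 (0.33), Ndufc1 (0.22), Ndufa9 (0.22), Ndufs6 (0.08) and Ndufs4 (0.05), always downstream of the start. The ETS letters were in Ndufs8 (0.27), Ndufs3 (0.24), Ndufb7 (0.13), Ndufb6 (0.07) and Ndufaf1 (-0.21). A match describes the letters and is no measure of binding.

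The 250 bases upstream of Ndufaf4 and Ndufa11 are shown because these genes had the highest log2 fold changes of the 45, a choice made after the values were seen. Capitals mark the NRF1 letters, which in both are read on either strand at neighbouring positions. The forward match lies at -113 in Ndufaf4 and at -60 in Ndufa11, counted from the start.

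Ndufaf4 (GRCm38.p6 chr4:24897833-24898082, plus strand): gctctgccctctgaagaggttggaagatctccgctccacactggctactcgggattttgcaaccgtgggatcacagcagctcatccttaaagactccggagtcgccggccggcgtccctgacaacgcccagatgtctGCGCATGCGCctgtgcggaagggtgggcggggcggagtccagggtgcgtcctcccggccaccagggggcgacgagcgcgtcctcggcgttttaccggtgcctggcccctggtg

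Ndufa11 (GRCm38.p6 chr17:56717512-56717761, plus strand): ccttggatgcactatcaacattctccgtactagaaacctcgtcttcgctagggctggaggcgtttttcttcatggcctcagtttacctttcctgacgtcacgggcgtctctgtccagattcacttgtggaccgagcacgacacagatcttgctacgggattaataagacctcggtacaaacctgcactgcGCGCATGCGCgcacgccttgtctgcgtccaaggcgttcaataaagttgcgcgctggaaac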

How the data were processed

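Per the labels, the authors scanned Agilent SurePrint G3 Mouse arrays and extracted them with Agilent Feature Extraction 12.0; the file headers name an 11.5 build of the program. The deposited scanner files hold Cy5 and Cy3 processed signal intensity, already background-subtracted and dye-normalised. The deposited series table holds log2 ratios that the authors centred on each probe's median; it served as an alternative. Here log2 of Cy5 over Cy3 was taken, control and outlier spots were left out, spots of a probe were averaged, and probes were kept if Cy5 was well above background on all arrays of a genotype. Each gene was represented by its brightest kept probe. Genotypes were compared with limma 3.58.1 in R 4.3.3 (lmFit, eBayes, Benjamini-Hochberg over all kept probes, threshold 0.05). The code was tested on simulated data. The number of arrays limits the precision.

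Named genes were the core subunits, assembly factors, Ndufa4 family, any gene past the adjusted threshold, and the 5 highest and 5 lowest accessory subunits; Ndufb9, Ndufa13 and genes named with a motif or as sub-threshold calls were added after their values were seen. Members and lists were chosen with earlier results of these data known. Alternatives were another background correction and normalisation, other filters, single channel, array weights, a replicate block, the methods' t-test and leaving out each array. Values of 1 core subunit are not reported here by name; it is included in the counts and means.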

Additional observations from a re-analysis of the deposited data

How the results depend on the processing

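The number of complex I probes with an adjusted p under 0.05 was 0 in every setting tried with limma or with the methods' t-test, while 3 probes had an unadjusted P under 0.05 with all arrays. That was 3 of 66, beside 3094 of all 34288 probes. With both channels above background on all arrays it was 5 of 59, beside 2212 of 24664. With array weights it was 6, beside 4048 of 34288. It was 1 with Cy5 alone and 1 with arrays centred on the median, beside 3064 and 3101 of 34288. Leaving out each array in turn gave 0 to 11. The number was 0 without wild-type 3, PRA transgenic 1 or PRA transgenic 3, beside 2566, 3016 and 2279 of all 34288 probes. It was 11 without PRA transgenic 4, beside 4233 of 34288. The number of genes higher in PRA transgenic glands, 36, ranged from 21 without PRA transgenic 1 to 43 without PRA transgenic 4, and the median log2 fold change from -0.01 to 0.25. The cause was not tested. Nothing in the labels says that replicate numbers pair the animals, and the wild-type mice were described only as littermates. Correlations of deviations between equal replicate numbers were 0.10, -0.30 and 0.04, and unequal numbers reached 0.38. With so few animals these values cannot show whether samples were paired. A fit with the replicate number as a block leaves PRA transgenic 4 without a partner. It gave 7 of 66 complex I probes with a limma P under 0.05, beside 3371 of all 34288 probes. Centring arrays on their median moved the share of higher calls among all probes with a P under 0.05 from 50.4% to 40.0%. No complex I gene that had a P under 0.05 changed sign in any setting, and the other settings left the 4 summary values as they were within the limits used. Slide row could not be fitted as a block, since each row held 1 genotype. With 3 and 4 animals and a median SE of 0.21, small differences of most members were not detectable.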
